A study of Mus musculus with 6 samples.

Results

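The genes described here are those of the mouse major histocompatibility complex (MHC) and of the machinery that serves it. They were chosen by name: protein-coding genes of the RefSeq table whose symbol starts with H2-, together with B2m, Ciita, Nlrc5, Tap1, Tap2, Tapbp and Cd74. The rule gave 45 genes of 21896 protein-coding genes in the table, of which 28 were class I, 9 class II, 7 accessory and 1, H2-Ke6, an unrelated enzyme gene of the same naming. A total of 42 genes, 25 of them class I, had a usable position among 21519 placed genes. H2-Q8, H2-Q9 and H2-T18 were not assessed, because the table places them below 3 Mb of chromosome 17, outside the order of the cluster.

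Open chromatin had been mapped by ATAC-seq, in which the transposase Tn5 cuts and tags accessible DNA, in hematopoietic stem cells sorted from bone marrow as Lin-, Sca-1+, c-Kit+, CD48- and CD150+. The Dek_cKO group held 3 libraries from mice of genotype Dekfl/fl,Tie2-Cre, in which control DNA of Tie2 makes Cre active in endothelial and blood lineages, so that deletion of Dek is not limited to stem cells. The Dek_fl group held 3 libraries from Dekfl/fl mice without Cre. Mice of both groups were C57BL/6 of 12 weeks (3 months) in homeostasis, and both carried floxed Dek alleles, with about 20000 sorted cells named per preparation. Dek is a nuclear protein that binds chromatin, and by the labels the comparison is of cells that lost it with cells that kept it. The series text speaks of duplicates where the labels list 3 libraries per group, and no label says that replicates came from separate animals, so p-values measure the spread between libraries, which may be technical.

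Class I molecules, made of an H2 heavy chain and beta-2 microglobulin, display peptides from inside the cell on nearly all nucleated cells. The peptides are pumped into the endoplasmic reticulum by Tap1 and Tap2 and loaded with the help of tapasin, the product of Tapbp. Class II molecules, alpha-beta pairs such as I-A, display peptides from endosomes and are known mainly from B cells, dendritic cells and macrophages. Their promoters share the X and Y boxes, on which the regulators Ciita (class II) and Nlrc5 (class I) act through bound factors rather than by touching DNA themselves.

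The libraries as labelled differed in list length more between replicates than between genotypes. The Dek_cKO lists held 70756, 73173 and 27170 peaks in replicates 1, 2 and 3, against 52451, 71555 and 23813 in the Dek_fl lists. Replicate 3 of both groups was also scored in another way by the authors, so that replicate number marks a processing batch that holds both genotypes. The weakest peak in replicate 3 had a −log10 p of 5.02 in Dek_cKO and 5.07 in Dek_fl, against 2.87 to 3.13 in the lists of replicates 1 and 2. Peaks weaker than that are absent from the replicate 3 lists, and their part in missing calls was not tested. At Dek itself, on chromosome 13 from 47084767 to 47107530, each library had 1 peak, with a fold at the summit of 5.13, 4.26 and 10.1 in Dek_cKO and of 4.13, 4.39 and 10.8 in Dek_fl. The peak lies at an end of the gene, and a peak list does not show whether DNA between loxP sites is missing, so it checks nothing about the deletion. At Tek, the source of the Tie2 control DNA, the strongest gene-end peak had a −log10 p of 32.9, 20.5 and 8.59 in Dek_cKO and of 260, 576 and 56.6 in Dek_fl. Another Tek region (chr4:94745330-94746933) had a −log10 p of 231, 435 and 45.9 in Dek_fl and no call in any Dek_cKO library. The Tek peaks were thus the stronger ones in the group with no Cre on its label, and "Dek_cKO" and "Dek_fl" are used here for the labels alone, as are all directions given. Of 6 genes that mark the sorted cells, 5 had a peak in each of the Dek_cKO libraries and 5, 6 and 4 in the Dek_fl libraries. Ly6a, which encodes Sca-1, had one in 0 Dek_cKO and 1 Dek_fl libraries.

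The promoters of 8 members are shown because they carry the X and Y boxes and range from starts inside a peak of every library to a start of a gene with none within 5 kb. Each runs from 250 bases before to 50 bases after the gene's start, on the gene's strand, from RefSeq (GRCm38.p6). Capitals mark matches, on either strand, to the Y box (CCAAT, or ATTGG in reverse), the core of the X2 box (TGACG), the core of the X1 box (CNAGNAAC), the NF-kappaB site and the interferon-stimulated response element. The last of these is TTTC, any 2 bases and TTTC, and the NF-kappaB site is GGGA, any base, T, any base and CCC.
B2m, chr2:122147437-122147736, plus strand: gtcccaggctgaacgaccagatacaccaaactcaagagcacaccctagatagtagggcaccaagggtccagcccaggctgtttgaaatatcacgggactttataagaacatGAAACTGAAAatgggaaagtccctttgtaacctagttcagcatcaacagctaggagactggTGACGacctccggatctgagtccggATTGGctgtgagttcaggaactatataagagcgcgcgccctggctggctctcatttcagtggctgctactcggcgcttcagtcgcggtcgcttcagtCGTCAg
H2-K1, chr17:34000298-34000597, minus strand: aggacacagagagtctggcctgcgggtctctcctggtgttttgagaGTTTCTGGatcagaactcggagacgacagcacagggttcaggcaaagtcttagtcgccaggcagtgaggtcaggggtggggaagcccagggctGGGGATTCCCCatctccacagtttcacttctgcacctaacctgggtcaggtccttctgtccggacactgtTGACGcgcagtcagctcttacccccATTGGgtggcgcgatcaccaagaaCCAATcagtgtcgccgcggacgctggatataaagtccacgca
H2-D1, chr17:35262844-35263143, plus strand: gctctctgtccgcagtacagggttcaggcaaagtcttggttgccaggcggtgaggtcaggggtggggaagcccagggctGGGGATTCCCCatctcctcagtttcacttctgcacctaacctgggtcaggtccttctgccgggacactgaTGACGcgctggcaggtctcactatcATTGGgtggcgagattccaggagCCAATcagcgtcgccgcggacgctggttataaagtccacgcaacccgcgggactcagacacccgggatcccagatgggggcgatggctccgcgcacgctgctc
H2-M3, chr17:37269984-37270283, plus strand: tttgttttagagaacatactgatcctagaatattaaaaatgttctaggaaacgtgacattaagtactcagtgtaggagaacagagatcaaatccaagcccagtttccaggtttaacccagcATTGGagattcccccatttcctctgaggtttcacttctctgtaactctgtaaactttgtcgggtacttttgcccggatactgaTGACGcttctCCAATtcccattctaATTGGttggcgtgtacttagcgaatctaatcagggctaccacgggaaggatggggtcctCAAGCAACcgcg
H2-Q7, chr17:35438905-35439204, plus strand: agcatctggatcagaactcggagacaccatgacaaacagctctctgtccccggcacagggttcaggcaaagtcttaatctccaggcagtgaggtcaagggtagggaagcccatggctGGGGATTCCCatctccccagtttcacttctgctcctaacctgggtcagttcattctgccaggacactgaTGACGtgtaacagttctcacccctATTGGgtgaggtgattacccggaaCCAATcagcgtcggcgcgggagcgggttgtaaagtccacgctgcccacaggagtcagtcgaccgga
H2-Aa, chr17:34287774-34288073, minus strand: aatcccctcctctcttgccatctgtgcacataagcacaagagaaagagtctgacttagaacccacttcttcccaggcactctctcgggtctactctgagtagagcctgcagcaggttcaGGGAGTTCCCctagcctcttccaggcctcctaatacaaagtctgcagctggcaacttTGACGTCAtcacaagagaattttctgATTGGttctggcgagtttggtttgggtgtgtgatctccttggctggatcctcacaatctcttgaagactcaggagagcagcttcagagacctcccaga
H2-Eb1, chr17:34305617-34305916, plus strand: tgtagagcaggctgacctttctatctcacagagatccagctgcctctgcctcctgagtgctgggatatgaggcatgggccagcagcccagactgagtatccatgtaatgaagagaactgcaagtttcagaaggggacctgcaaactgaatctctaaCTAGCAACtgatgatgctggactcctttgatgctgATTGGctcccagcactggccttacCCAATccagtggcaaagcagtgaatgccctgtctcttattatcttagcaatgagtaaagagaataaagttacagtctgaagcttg
H2-M10.1, chr17:36326101-36326400, minus strand: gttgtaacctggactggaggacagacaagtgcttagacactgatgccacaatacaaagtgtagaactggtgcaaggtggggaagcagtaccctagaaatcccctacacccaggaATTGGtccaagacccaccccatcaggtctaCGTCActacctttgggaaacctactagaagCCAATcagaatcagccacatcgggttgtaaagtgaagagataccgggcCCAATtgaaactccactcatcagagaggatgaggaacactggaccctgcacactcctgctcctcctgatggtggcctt

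Promoters were in the table for 35 members. The Y box was in 20 of 23 class I genes, 8 of 8 class II genes and 3 of 3 accessory genes, against 37.4% of 32851 promoters. The X2 core was in 11 class I genes, 1 class II gene (H2-Aa) and 2 accessory genes (B2m and Tap1), against 20.8% of promoters. The X1 core was in 4 class I genes and in 5 class II genes (H2-DMb1, H2-Eb1, H2-Eb2, H2-Oa and H2-Ob), against 13.8% of promoters. The NF-kappaB site was in H2-K1, H2-D1, H2-Q4, H2-Q6, H2-Q7 and H2-Aa, against 1.10% of promoters. The interferon-stimulated response element was in B2m, H2-T22 and H2-T23, against 3.44% of promoters. Many members are close relatives of one another, so these matches are not independent of each other, and a match describes the letters and not a bound factor.

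The spacing of the boxes was looked at after the sequences had been seen. TGACG followed by ATTGG on the gene's strand, with 18 to 22 bases between them, was in 6 of the 35 members, against 0.152% of all promoters. The members were B2m, H2-K1, H2-D1 and H2-M3, each with 20 bases between the boxes, H2-Aa with 21 and H2-Q7 with 19. In all of these 6 the gene's start lay inside a peak of at least 5 libraries. The start was covered in all 6 libraries in B2m, H2-K1, H2-D1 and H2-M3, in 3 Dek_cKO and 2 Dek_fl libraries in H2-Q7, and in 2 Dek_cKO and 3 Dek_fl libraries in H2-Aa. Starts were also covered in all 6 libraries in H2-Q4, H2-T22, H2-T23, H2-T-ps, Tap1 and H2-Ke6, which have no such pair of boxes. Of 17273 protein-coding genes with a promoter, 44.9% had the start covered in all 6. That share stands beside B2m, H2-K1, H2-D1 and H2-M3 only, since the share of genes covered in at least 5 libraries was not counted. H2-M10.1 also holds the Y box and the X2 core, with the X2 core in reverse, and its start lay in a peak of 0 libraries.

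A gene counted as called in a library when at least 1 peak overlapped the gene or 5 kb on either side. The share of members called was 76.2%, 76.2% and 50% in Dek_cKO replicates 1, 2 and 3, against 73.8%, 76.2% and 50% in Dek_fl. The means were 67.5% ± 15.1 in Dek_cKO and 66.7% ± 14.5 in Dek_fl (SD, n = 3 each), so the genotypes differed by far less than the libraries within one. Over all placed protein-coding genes the same share was 79.5%, 79.7% and 66.0% in Dek_cKO, against 76.7%, 79.5% and 64.6% in Dek_fl. The members are short, with a median length of 4846 bp against 17375 bp over all genes, and a short gene gives a smaller window.

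**Figure D1:**
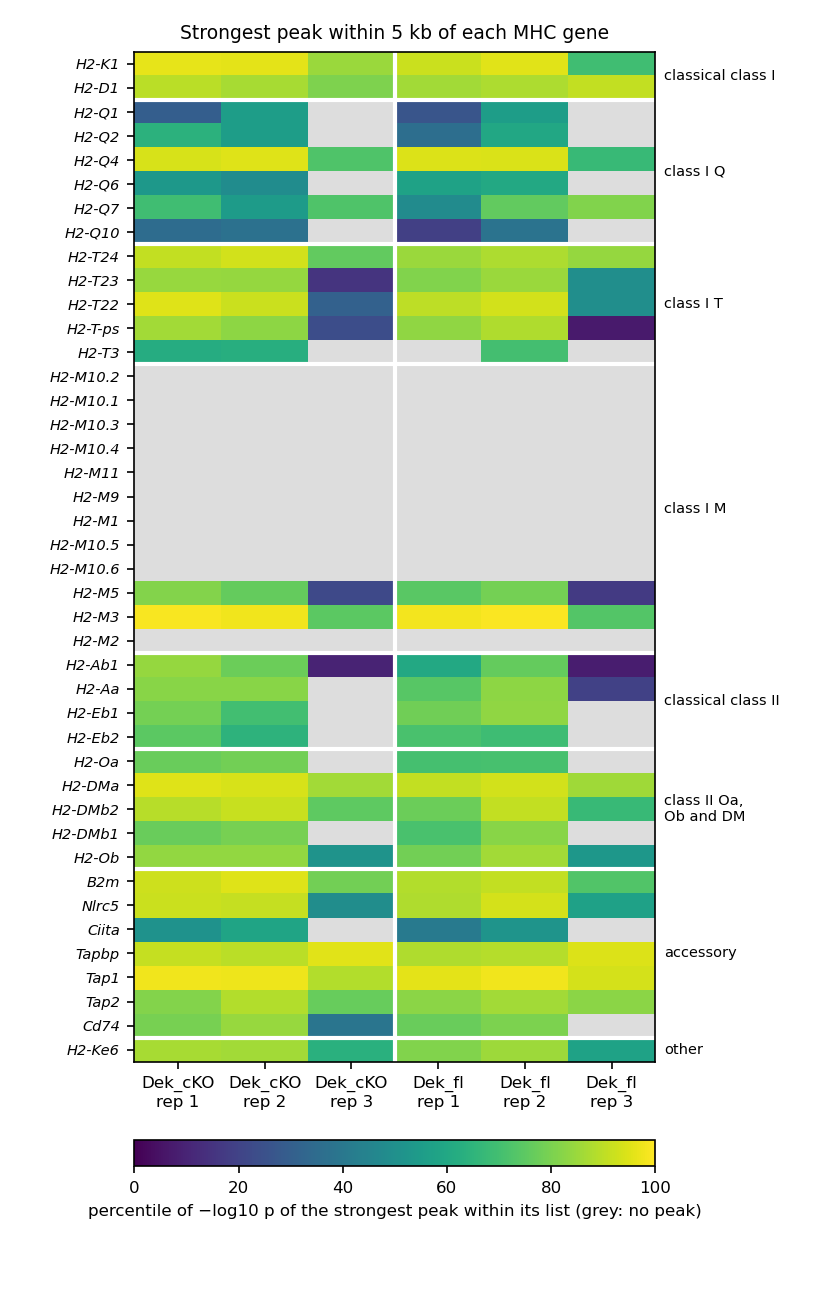
Percentile of the −log10 p of the strongest peak within 5 kb of each of the 42 placed genes (rows, grouped by class), among all peaks of the same library's list, in 3 Dek_cKO libraries (left) and 3 Dek_fl libraries (right); grey marks a gene with no peak. The H2-M10 genes are grey in all 6 libraries, and several Q and class II genes are grey in replicate 3 of both genotypes.

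Of the 42 members, 20 were called in all 6 libraries, which compares with 62.5% of all protein-coding genes, and 10 in no library, which compares with 19% of them. The remaining 12 were called in some libraries. All 10 genes without a peak were class I genes of the M group, so the class II genes and the accessory genes each had a peak in at least 1 library.

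The classical class I heavy chain genes H2-K1 and H2-D1 were called in every library. The region at the start of H2-K1 (chr17:33999031-34000981) had a fold over the local background of 7.80, 8.76 and 11.6 in Dek_cKO, against 6.74, 6.53 and 7.95 in Dek_fl. These folds come from the authors and were larger in replicate 3 over all peaks, so they are read as ranks. In percent of peaks of its list with a lower fold, the H2-K1 peak stood at 83.8, 86.2 and 79.7 in Dek_cKO and at 84.6, 79.4 and 51.3 in Dek_fl. The genotypes overlapped, with Dek_fl replicate 3 lowest of the 6. At the start of H2-D1 (chr17:35262572-35264037) the fold was 5.11, 5.20 and 8.69 in Dek_cKO, against 4.78, 4.23 and 10.2 in Dek_fl. Its percentile was 50.6, 48.9 and 54.7 in Dek_cKO and 57.5, 43.6 and 74.1 in Dek_fl, again overlapping, with Dek_fl replicate 3 highest.

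The Q genes encode non-classical class I molecules, among them H2-Q7, which encodes Qa-2. All 6 placed Q genes were called in replicates 1 and 2 of both genotypes, and 2, H2-Q4 and H2-Q7, also in replicate 3 of both. H2-Q4 was among the stronger members, with fold percentiles of 88.2, 92.6 and 77.4 in Dek_cKO and of 96.2, 89.8 and 63.1 in Dek_fl. H2-Q10, which encodes a class I molecule secreted by the liver, had its strongest peak at fold percentiles of 40.8 and 40.6 in Dek_cKO replicates 1 and 2 and of 27.3 and 38.9 in Dek_fl replicates 1 and 2. At the start of H2-Q6 a narrow region (chr17:35424769-35425266) was called in Dek_cKO replicates 1 and 2, with folds of 4.11 and 3.31, and in 0 Dek_fl libraries. In replicates 1 and 2 alone, 2555 of 84592 regions of the genome were called in both Dek_cKO and 0 Dek_fl libraries, and 282 the other way round. No source used here says how the authors treated reads that fit several members of this family, and values of single Q and T genes are uncertain to that extent.

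Of the 5 T genes, H2-T24, H2-T23, H2-T22 and H2-T-ps were called in all 6 libraries. H2-T23 encodes Qa-1, which presents leader peptides of other class I chains to natural killer cell receptors. H2-T3, which encodes the thymus leukemia antigen, was called in Dek_cKO replicates 1 and 2 and in Dek_fl replicate 2. Of the 12 M genes, H2-M3, which presents peptides with N-formyl methionine, and H2-M5 were called in all 6 libraries. The peak at H2-M3 (chr17:37269852-37271571) was at the 99.0, 97.7 and 74.7 percentile of −log10 p in Dek_cKO and at the 98.3, 99.4 and 73.4 percentile in Dek_fl.

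The other 10 M genes, H2-M10.1 to H2-M10.6, H2-M11, H2-M9, H2-M1 and H2-M2, had no peak in any of the 6 lists. The M10, M1, M9 and M11 genes are known from sensory neurons of the vomeronasal organ. The nearest peak of any library lay between 6.60 kb (H2-M10.1) and 83.5 kb (H2-M9) away. From the first to the last H2-M10 gene, over 531 kb, there were 11 regions with a peak in at least 1 library, or 20.7 per Mb, of which 1 was called in all 6 libraries. The stretch from H2-Oa to H2-Eb2 holds all class II genes, and also Tap1, Tap2, Psmb8, Psmb9 and an end of Brd2. It had 37 regions in 249 kb, or 149 per Mb, against 41.0 per Mb over chromosome 17. The density of genes was not compared. Without a call the chromatin is not shown to be closed, since the read depth behind the lists is unknown.

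Every class II gene was called in replicates 1 and 2 of both genotypes. In replicate 3, 4 of the 9 were called in Dek_cKO and 5 in Dek_fl. The means were 81.5% ± 32.1 in Dek_cKO and 85.2% ± 25.7 in Dek_fl (SD, n = 3 each). At H2-Aa, the alpha chain of I-A, the region at the start (chr17:34286287-34288321) had a fold of 6.87 and 7.36 in Dek_cKO replicates 1 and 2 and no call in replicate 3, against 5.07, 5.84 and 6.12 in Dek_fl. At H2-Eb1, the beta chain of I-E, which C57BL/6 mice do not display for want of a working alpha chain gene, the start region (chr17:34304596-34306597) had folds of 6.13 and 5.59 in Dek_cKO and of 5.54 and 5.81 in Dek_fl, in replicates 1 and 2 alone. At H2-Eb2, another beta chain gene, the strongest region (chr17:34340665-34341913) had folds of 8.96 and 7.96 in Dek_cKO and of 6.92 and 6.82 in Dek_fl. H2-Eb1 and H2-Eb2 had peaks in replicates 1 and 2 of both genotypes and none in replicate 3, whereas H2-Aa lacked a peak in Dek_cKO replicate 3. At the end of H2-Ab1 with the lower coordinate, a region (chr17:34262878-34265445) had folds of 4.44 and 5.40 in Dek_cKO replicates 1 and 2 and no call in replicate 3, against 3.65, 4.10 and 4.37 in Dek_fl.

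H2-DMa and H2-DMb2 encode chains of the DM molecule, which exchanges peptides on class II, and H2-Ob encodes a chain of its inhibitor DO. These 3 genes were called in every library, whereas H2-DMb1 and H2-Oa were called in replicates 1 and 2. The strongest region of H2-DMa lies in the gene body (chr17:34135309-34136750), with folds of 10.1, 10.6 and 15 in Dek_cKO, against 7.58, 8.21 and 12.9 in Dek_fl. Neighbouring members share regions: 1 lies in the windows of H2-DMa and H2-DMb2, 1 in those of H2-DMb2 and H2-DMb1 and 1 in those of H2-T23 and H2-T22.

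Beside the class II calls stand those of cells that display class II. Of the B cell markers, Cd79a, Pax5 and Ebf1 had a peak in all 6 libraries, and Cd79b and Ms4a1 had one in replicates 1 and 2 of both genotypes and none in replicate 3. Of 6 dendritic cell and macrophage markers, 5 were called in each Dek_cKO library and 5, 5 and 4 in the Dek_fl libraries, with Cd209a at 0 in all. Of 5 T cell markers, 3, 4 and 3 were called in Dek_cKO and 3, 3 and 2 in Dek_fl, with Cd8a at 0 in all. Over all placed protein-coding genes, 62.5% were called in all 6 libraries. By library the share was 76.7% to 79.7% in replicates 1 and 2, and in replicate 3 it was 66.0% in Dek_cKO and 64.6% in Dek_fl. A peak near a marker does not count cells, and the part of other cells in the class II peaks was not tested.

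The accessory genes were all called in replicates 1 and 2, and in replicate 3 in 6 of 7 in Dek_cKO and 5 of 7 in Dek_fl. B2m had a region at its start (chr2:122146640-122149189) with folds of 5.96, 7.20 and 9.43 in Dek_cKO, against 5.27, 4.69 and 8.45 in Dek_fl. Tap1 shares its start region (chr17:34186649-34188341) with the immunoproteasome gene Psmb9, and its strongest peak was at the 97.9, 97.5 and 88.7 percentile of −log10 p in Dek_cKO and at the 96, 97.7 and 93.6 percentile in Dek_fl. By −log10 p the B2m peak was at the 92.2, 95.2 and 78.8 percentile in Dek_cKO and at the 88.3, 91 and 73 percentile in Dek_fl. That is higher in Dek_cKO at each replicate number while the groups overlapped. Other members, among them H2-K1, H2-DMa and H2-Ke6, had the same order, so it is not particular to B2m. The share of all genes with this order was not counted. By fold the B2m peak was at the 63.0, 73.0 and 62.3 percentile in Dek_cKO and at the 66.2, 52.3 and 57.2 percentile in Dek_fl, lower in Dek_cKO at replicate 1. The start of Tapbp, whose product joins the transporter to class I, lay in a region (chr17:33919141-33920990) with folds of 3.19, 3.64 and 5.09 in Dek_cKO, against 3.29, 3.45 and 3.97 in Dek_fl. Its percentile of −log10 p was 64.4, 67.9 and 49.1 in Dek_cKO and 66.3, 75.9 and 27.7 in Dek_fl. Stronger peaks within 5 kb of Tapbp lay in its flanks, among them one at Daxx and Zbtb22.

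Tap2 had a gene-body region (chr17:34210082-34211518) with folds of 5.86, 8.34 and 11.5 in Dek_cKO, against 5.83, 5.73 and 12.6 in Dek_fl, which overlap. The regulator genes varied more. Nlrc5 had 7, 6 and 3 peaks in its window in Dek_cKO and 4, 7 and 2 in Dek_fl. Ciita had 6 and 7 peaks in Dek_cKO replicates 1 and 2 and 3 and 6 in Dek_fl replicates 1 and 2, with 0 in replicate 3 of both genotypes. Cd74, the invariant chain that occupies the class II groove during assembly, had a gene-body region with folds of 4.27, 5.11 and 5.38 in Dek_cKO, against 4.03 and 3.68 in Dek_fl replicates 1 and 2 and no call in replicate 3. All 28 other genes of antigen processing and of class I and II regulation that were listed, such as Psmb8, Rfx5, Nfya and Irf1, were called in all 6 libraries, against 62.5% of all placed protein-coding genes.

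**Figure D2:**
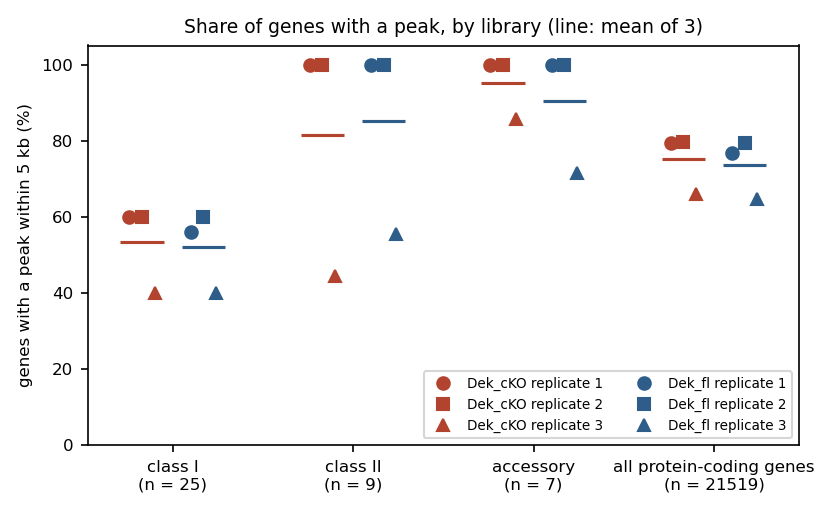
Percent of genes with at least 1 peak within 5 kb in each library, for class I, class II, accessory and all placed protein-coding genes, with Dek_cKO left of Dek_fl within each set; marks are libraries and lines are means of 3. Class II genes reach 100% in replicates 1 and 2 and lie at 44.4% (Dek_cKO) and 55.6% (Dek_fl) in replicate 3.

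Class II genes were called more often than class I genes, by 30.7 percentage points on average over the 6 libraries. The difference was 40, 40 and 4.44 points in Dek_cKO and 44, 40 and 15.6 points in Dek_fl. It averaged 41.0 points in replicates 1 and 2 but 10.0 points in replicate 3. In Dek_cKO replicate 3 the sign depended on the setting: the difference was −6.67 points in lists of equal length, −6.67 with the gene alone and −2.67 within 1 kb of a gene end. The difference also rested on the 10 M genes with no call. Of the other 15 class I genes, a set taken after the calls were seen, 100%, 100% and 66.7% were called in Dek_cKO and 93.3%, 100% and 66.7% in Dek_fl. Class II genes, at 100%, 100% and 44.4% in Dek_cKO and 100%, 100% and 55.6% in Dek_fl, were thus not called more often than these 15 except in Dek_fl replicate 1. Members of a class share sequence, neighbours and peaks, so the classes are described and not tested.

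The peaks of the members fell into 85 regions, formed from peaks of different libraries that overlap, out of 84592 over the genome. Of these 85 regions, 30 were called in all 6 libraries, against 19683 of the 84592 over the genome. A further 45 were called only in libraries of replicates 1 and 2, among them 5 in a single library. The shares of the genome's regions of these latter kinds were not counted, so these counts are not read as particular to the members. More Dek_cKO than Dek_fl libraries were called in 23 regions (27.1%), fewer in 7 (8.24%) and equally many in 55. Over all regions of the genome the shares were 33.1% and 10.2%, so the members leaned to Dek_cKO no more than the background did. The Dek_fl replicate 1 list is much the shorter among replicates 1 and 2, and its part in that count was not tested. Over the genome, 0.104% of regions were called in all 3 Dek_cKO and in 0 Dek_fl libraries, and 0.00355% the other way round, or 88 and 3 regions. That lean did not hold in lists of equal length, where regions were formed anew and the counts were 40 and 72. With replicate 3 of 1 group left out, the groups are of unequal size, so the counts in both directions follow unlike rules. Such counts cannot show whether the lean holds: 137 and 275 without Dek_fl replicate 3, and 2492 and 4 without Dek_cKO replicate 3.

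Among the members, 1 region was called in all 3 Dek_cKO and in 0 Dek_fl libraries, and 0 the other way round. The region is a narrow one beside H2-Ab1, the beta chain of I-A (chr17:34261483-34261826), 1401 bp outside the end of the gene with the lower coordinate. Its folds were 2.11, 2.73 and 4.47 in Dek_cKO and its −log10 p 8.68, 14.2 and 9.01. These are weak peaks: by fold they stood at the 1.0, 6.08 and 3.73 percentile of their lists. By −log10 p they ranked 57895th of 70731, 45571st of 73160 and 24507th of 27167 on the chromosomes used. When each list was limited to its strongest 23809 peaks, the length of the shortest, this region was called in no library, and 0 member regions were called in all 3 Dek_cKO and 0 Dek_fl libraries. The peaks on either side had no such pattern: the region 4995 bp outside the gene was called in all 6 libraries and that at the end of the gene in 2 Dek_cKO and 3 Dek_fl libraries.

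**Figure D3:**
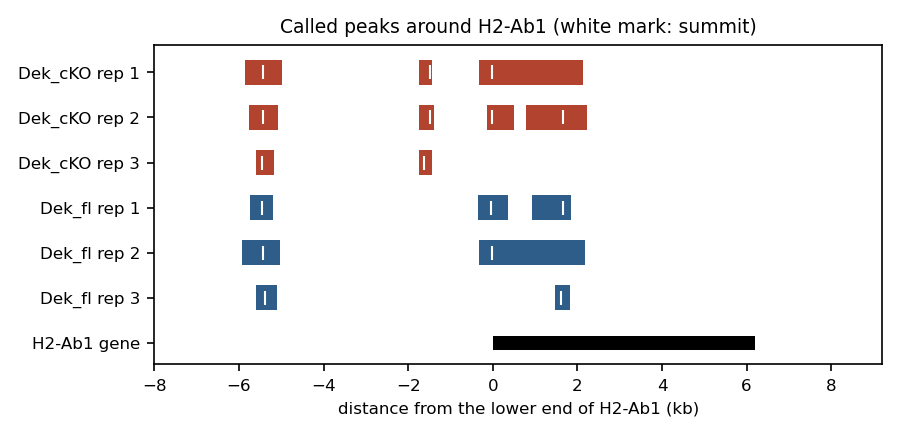
Peaks called around H2-Ab1 in 3 Dek_cKO libraries (upper rows) and 3 Dek_fl libraries (lower rows), by distance in kb from the end of the gene with the lower coordinate; bars are peak extents, white marks are summits and the black bar is the gene. The narrow peak about 1.4 kb outside the gene is in the Dek_cKO rows and in none of the Dek_fl rows.

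Where a region was called in all 6 libraries, its fold was ranked within each library over the 19683 such regions of the genome. The ranks were turned into normal scores. Dek_cKO was compared with Dek_fl by limma with Benjamini-Hochberg adjustment, in the main fit without a replicate block. No region of the genome passed an adjusted p of 0.05 in either direction: 0% were called higher and 0% lower in Dek_cKO. Of all 19683 regions, 68 were higher and 19 lower at an unadjusted p under 0.05, among them 0 and 0 of the 30 member regions. In the fit with a replicate block, 1 region of the genome passed as higher in Dek_cKO and 0 as lower, and the one that passed was not a member region. With that block too, 0 member regions were higher and 0 lower at an unadjusted p under 0.05. The member scores were higher in Dek_cKO at 13 regions and lower at 17, with a median difference of −0.06 and a range from −0.41 to 0.31. The median over all shared regions was −0.02. By class the median difference was −0.08 over 12 class I regions, 0.04 over 6 class II regions and −0.07 over 10 accessory regions.

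**Figure D4:**
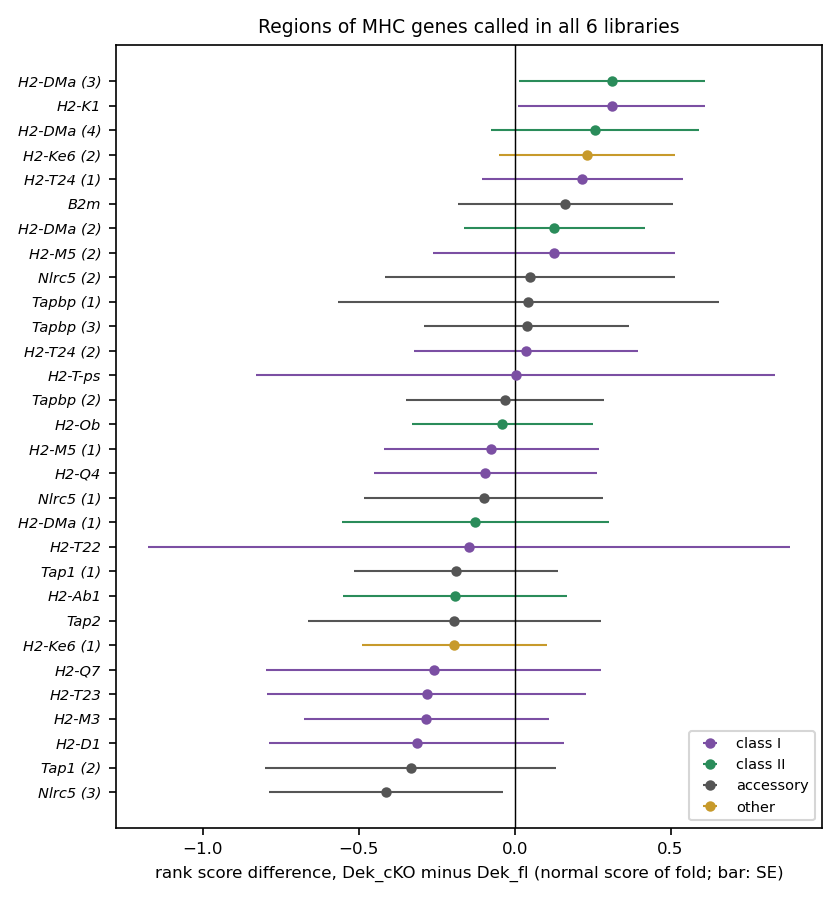
Difference of the rank score (normal score of the fold within a library), Dek_cKO minus Dek_fl, with its standard error from limma without a replicate block, for the 30 member regions called in all 6 libraries. Colours give the class, and regions of the same gene are numbered by coordinate. The differences lie between −0.41 and 0.31, and none passed the adjusted threshold.

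Differences at single regions were of the size of their standard errors. Both are given here from the fit without a replicate block, where the standard error includes the gap between batches. With the block the differences were the same and the standard error was 0.28 at H2-D1 and 0.28 at H2-T23. The score at the H2-K1 start was higher by 0.31 (SE 0.30) and that at the H2-DMa gene body by 0.31 (SE 0.30), while at H2-D1 the difference was −0.31 (SE 0.47). At B2m it was 0.16 (SE 0.34), at Tap1 and Psmb9 −0.19 (SE 0.33), and at H2-T23 −0.28 (SE 0.51). The region 4995 bp outside H2-Ab1 had a difference of −0.19 (SE 0.36), and the gene-body region of Nlrc5 with the strongest fold (chr8:94491514-94493153) 0.05 (SE 0.47). H2-K1 and H2-DMa were also the members of smallest p among those higher in score, with a region at H2-Ke6, Slc39a7 and Rxrb (0.23, SE 0.28). Of those lower in score the smallest p-values belonged to a region in the flank of Nlrc5 at Cpne2 (−0.41, SE 0.38), one at the end of Tap1 and at Psmb8 (−0.33, SE 0.47) and H2-M3 (−0.28, SE 0.39). The adjusted p of each of these 12 regions was 1.0 by limma. A p above the threshold does not show equal accessibility. Cd74 and Ciita had no region called in all 6 libraries.

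The strongest peak of each gene was also compared by its percentile within its own list. Among the 20 members called in all 6 libraries, 1 had fold percentiles that did not overlap between the genotypes: H2-DMa, at 96.8, 95.3 and 95 in Dek_cKO and at 91.2, 93.8 and 90.5 in Dek_fl, a gap of 1.24 points. Of the 13439 genes called in all 6 libraries, 1.72% were apart in that direction and 0.856% with Dek_fl higher, where the members had 0. By −log10 p, 0 members were apart in either direction, against 1.8% of genes with Dek_cKO higher and 0.216% with Dek_fl higher. With 20 genes, a count of 1 is near the share among all genes. A longer list contains more weak peaks and raises the percentile of a given peak.

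**Figure D5:**
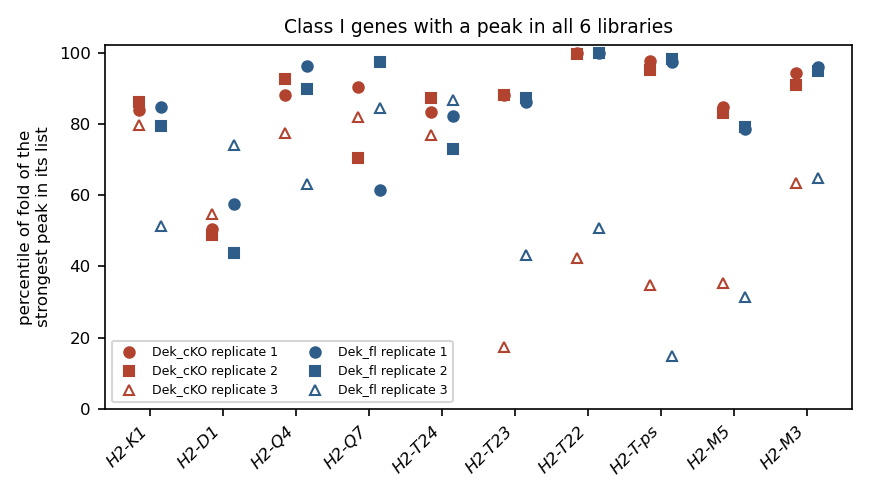
Percentile of the fold of the strongest peak within 5 kb, among all peaks of the same library's list, for the 10 class I genes called in all 6 libraries, ordered along chromosome 17, with Dek_cKO left of Dek_fl for each gene; open triangles are replicate 3. H2-T22 stands near 99.9 in replicates 1 and 2 of both genotypes and at 42.3 (Dek_cKO) and 50.7 (Dek_fl) in replicate 3.

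Batch separated the class I T genes more than genotype did. At H2-T22, which encodes a ligand of gamma-delta T cell receptors, the fold percentile was 99.9, 99.8 and 42.3 in Dek_cKO and 99.9, 99.9 and 50.7 in Dek_fl. H2-T-ps had fold percentiles of 97.7, 95.2 and 34.6 in Dek_cKO and of 97.3, 98.3 and 14.7 in Dek_fl, and H2-T23 of 88.1, 88.1 and 17.4 in Dek_cKO and of 86.0, 87.3 and 43.1 in Dek_fl. Replicate 3 was thus the low one at all 3 genes in both genotypes. In rank scores over the shared regions, replicate 3 minus the mean of replicates 1 and 2 was −3.17 at H2-T22, −2.47 at H2-T-ps and −1.31 at H2-T23, where 0.0152%, 0.178% and 5.34% of all shared regions lay as low or lower. The region at an end of the neighbouring H2-T24 had 0.58, and H2-D1 had 1.16. The regions that stood higher in replicate 3 included one in the flank of Tapbp, at Daxx and Zbtb22, with 1.73, where 98.6% of shared regions lay as low or lower. Both genotypes are in each batch. The standard error of the genotype difference was 1.03 at H2-T22 and 0.83 at H2-T-ps without the block, against 0.28 at each in the fit with a replicate block.

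Where the table gives a gene's start, the position of the peak could be set against it. Of 35 members, the start lay inside a peak of all 6 libraries in 10, of some libraries in 11 and of none in 14, of which 12 were class I genes. Over 17273 protein-coding genes with a promoter in the table, 44.9% had the start inside a peak of all 6 libraries and 35.9% in a peak of none. The 10 comprised 7 of 23 class I genes, 0 of 8 class II genes, 2 of 3 accessory genes and H2-Ke6. At B2m the summit lay a median of 55.5 bases before the start over the 6 libraries, with a range from −103 to −11, the stretch that holds the X2 and Y boxes printed above. At H2-D1 it lay a median of 134 bases before the start, at H2-T22 26 bases before and at H2-Aa 43 bases before over 5 libraries. Other summits lay inside the gene, such as H2-M3 with a median of 289 bases after the start and H2-Ob with 889 bases after over 4 libraries.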

How the data were processed

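ATAC-seq of sorted mouse hematopoietic stem cells was given as 1 list of peaks per library, called separately. Bowtie2, Picard and MACS2 with build mm10 were used, per the submitters' processing notes. No source used here gives versions, settings, any Tn5 shift or the handling of reads fitting several places. The columns are taken from the narrowPeak layout. In replicates 1 and 2 the score as deposited equals the −log10 q-value times 10, and in replicate 3 the −log10 p-value times 10, within 1 unit in 100% of peaks. The deposited fold over background and −log10 p are the authors' own per-peak values and were used to rank or describe peaks within a list. Read depth is unknown, so no interval is given, and the only floor given is the −log10 p of the weakest peak in a list.

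Here peaks on chromosomes 1 to 19 and X were assigned to RefSeq genes (GRCm38.p6, 1-based coordinates) within 5 kb and merged into regions when sharing at least 1 bp. Percentiles are mid-ranks within a list. The result for 1 marker gene is not reported here. Rank scores were compared with limma 3.58.1 (R 4.3.3; Python 3.11.15) and adjusted over all shared regions. In simulated data without a gap between batches, 100% of planted shifts of 3 score units were recovered. Because those shifts were far larger than the member differences, that run cannot tell whether differences of the members' size would be found. The gene table gives no strand, exons or UTRs, so places are a gene end (within 1 kb), gene body or flank, and strand and start come from the RefSeq promoter table. The members, lists, tests and named genes were chosen with earlier results of these data known. Named are the classical genes, the strongest shared region of 10 listed members, up to 3 regions of smallest p each way, and what did not overlap between groups.

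Replicate numbers were compared by the correlation of deviations from the group means over shared regions. It was 0.27, 0.52 and 0.74 for pairs numbered 1, 2 and 3, which met the rule for pairing of over 0.1 in every pair. The main fit left this pairing out, and the replicate block was run as an alternative. Differences and standard errors are from the main fit unless the block is named. Dek_cKO replicate 1 correlated more with Dek_fl replicate 2 (0.57), and the labels name no shared animal or day. Alternatives were other thresholds, equal list lengths, windows, overlaps and batches, and leaving out each library.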

Additional observations from a re-analysis of the deposited data

How the results depend on the processing

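The count of member regions past the limma threshold was 0 in each direction under every alternative run: ranks of −log10 p, the replicate block, a batch term, −log10 q of at least 10, equal-length lists, 100 bp shared and each library left out. With the replicate block, 1 region of the genome was higher in Dek_cKO. Class II exceeded class I by 10.0 points in replicate 3 alone and by 28.0 to 35.9 points with a library left out. The small genotype differences in percent called had no stable sign: without each library in turn they ran from −7.54 to 9.52 points for all members, −4.67 to 8 for class I and −18.5 to 14.8 for class II. For all members the extremes were 9.52 without Dek_cKO replicate 3 and −7.54 without Dek_fl replicate 3, which leave a short replicate 3 list in 1 group only. With the same replicates in both groups, the difference was 1.19 points in replicates 1 and 2 and 0 in replicate 3. With each library left out in turn, rank differences also crossed 0 at 7 of the 12 named regions: they ran from −0.071 (without Dek_fl replicate 2) to 0.38 at B2m, from −0.19 (without Dek_fl replicate 3) to 0.52 in the gene body of Nlrc5, from −0.60 to 0.28 (without Dek_cKO replicate 3) at H2-T23, from −0.36 to 0.081 (without Dek_cKO replicate 3) at H2-Ab1, from −0.70 to 0.048 (without Dek_cKO replicate 3) at Tap1 and Psmb8, from −0.68 to 0.17 (without Dek_fl replicate 3) at H2-D1 and from −0.36 to 0.077 (without Dek_fl replicate 3) at Tap1 and Psmb9. The cause was not tested.

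Counts of regions called in every Dek_cKO and no Dek_fl library under other settings were chosen after seeing the data. The count of 1 fell to 0 in equal-length lists. It was 3 in replicates 1 and 2 alone (H2-Ab1, Tap2 and H2-Q6), where 2555 regions of the genome were called that way and 282 in reverse. It was also 3 without Dek_cKO replicate 3 (2492 and 4 over the genome). The count was 6 in replicate 3 alone (5790 and 2583) and 2 without Dek_fl replicate 2 (742 and 4). Except in equal-length lists and at −log10 q of at least 10, these are out of 85 member regions and 84592 regions of the genome. In those settings regions were formed anew from the shortened lists, and their number is not given. Leaving out 1 library makes the groups unequal in size, so the counts in both directions then follow unlike rules. The reverse count was 3 in replicate 3 alone. At −log10 q of at least 10 the count was 1, at B2m (chr2:122155310-122156540) and not at H2-Ab1, with 51 and 1 over the genome.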
